A study of Schmidtea mediterranea with 9 samples.

Results

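The transcripts described here are 6 genes that the study set among the known gonadal genes of the planarian *Schmidtea mediterranea* and that are known from testis: *elav2* (SMED30011702), *bic-c* (SMED30015067), *C3H-zfn-1* (SMED30034336), *rap55* (SMED30019490), *sped-1* (SMED30009122) and *gapdh* (SMED30011351). They were chosen by identifier, from the symbols printed beside transcripts in the study's heatmap of such genes, and make up 6 of the 36036 transcripts counted. The paper found most genes of that heatmap raised in testis in these same libraries. The choice was also made with earlier results of these data known. All worms were wild type and of the sexual strain, a simultaneous hermaphrodite, and no treatment was applied. The study cut testis, ovary and the non-gonadal tissue around them out of stained sections by laser-capture microdissection (LCM) and sequenced 3 libraries of each. For each testis library 6 worms were sectioned, 4 of them crosswise and 2 sagittally. An ovary library took 14 worms (10 crosswise and 4 sagittally), and a non-gonadal library took 6 (4 and 2). Whether the same worms gave testis and non-gonadal tissue is not stated. The main comparisons treat the libraries as unpaired. Captured gonad areas hold germ cells and somatic cells together, and in every tissue a value is a mean over all cells of the area.

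Planarian testes are clusters in which germ cells pass from spermatogonia at the edge through meiosis to spermatids and sperm at the centre. In many animals, developing sperm store mRNA and translate it late, and RNA-binding proteins control when this happens. Of the genes here, *elav2* is named for the ELAV family, which binds U-rich stretches of mRNA. *bic-c* is named for Bicaudal-C, a KH-domain RNA-binding protein known from *Drosophila* oogenesis, and *C3H-zfn-1* for a zinc finger of the CCCH type, which often binds RNA. *rap55* carries the name of a protein of the LSM14 family, which represses translation of stored mRNA in *Xenopus* oocytes. *gapdh* bears the name of a glycolytic enzyme, glyceraldehyde-3-phosphate dehydrogenase, of which mammals have a form particular to sperm.

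Libraries held 22157475 to 25537267 counts for testis, 20629642 to 25730833 for ovary and 18611584 to 21654320 for non-gonadal tissue. The 6 transcripts together held 1.23 to 1.33% of the counts in testis libraries, 0.00596 to 0.0132% in ovary libraries and 0.00362 to 0.00729% in non-gonadal libraries. Of the marker transcripts, *lecg*, encoding a galactose-binding lectin of oocytes, had 90.5 to 104 TPM in testis, 2840 to 3059 TPM in ovary and 7.40 to 28.4 TPM in non-gonadal tissue. *zfs1*, a marker of female germ cells, had 1 count in all in testis, 1212 to 1401 counts per library in ovary and 17 to 56 per library in non-gonadal tissue. *nanos*, a marker of early germ cells of both sexes, had 25.2 to 33.1 TPM in testis, 60.8 to 72.1 TPM in ovary and 10.8 to 12.5 TPM in non-gonadal tissue. *aadc*, expressed in somatic cells of the gonads, had 6.70 to 9.28 TPM in testis, 84.8 to 103 TPM in ovary and 9.16 to 10.5 TPM in non-gonadal tissue. The paper also reports *aadc* in vitellaria and, for asexual worms, in neurons, pigment cups and secretory cells near the pharynx. All 4 markers were called higher in ovary than in the tissue around it, as were 18.3% of all transcripts tested (edgeR). Against the same tissue, *nanos* and *lecg* were also called higher in testis, *zfs1* was called lower and *aadc* was not called. No marker of testis other than the genes described was used. Nothing in the labels states that libraries of a tissue came from separate experiments, so that p-values measure the spread between these pools only.

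All 6 transcripts were high in every testis library and low in every other library. Levels are given in the deposited unit TPM, in which each library's length-scaled counts sum to the same total, so that genes can be compared with each other. Every testis library lay above all 6 other libraries for all 6 transcripts, a pattern held by 24.8% of the 18416 transcripts tested (those with at least 1 CPM, as deposited, in at least 3 libraries). In these bulk captures, fewer cells that express a transcript and less RNA of it per cell cannot be told apart.

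The most abundant was *sped-1*, whose transcript is 874 bases long and ranked 10 among all transcripts by mean testis TPM. It had 8411, 8178 and 7661 TPM in testis, 77.2, 35.2 and 77.8 TPM in ovary and 38.7, 18.3 and 18.2 TPM in non-gonadal tissue. The testis libraries differed little among themselves (8083 ± 384 TPM, SD, n = 3), whereas ovary replicate 2 stood well below the other ovary libraries and also below non-gonadal replicate 1. Behind the lowest of these levels stood 353 counts, in non-gonadal replicate 3.

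*C3H-zfn-1* (1721 bases, rank 37 in testis) came next, with 2253, 2523 and 2132 TPM in testis, 23.5, 12.8 and 22.2 TPM in ovary and 11.3, 6.01 and 5.84 TPM in non-gonadal tissue. Here too ovary replicate 2 was the lowest of the ovary libraries and non-gonadal replicate 1 the highest of its tissue, but the ranges of the 3 tissues did not overlap. Its mean was 2303 ± 200.0 TPM in testis, 19.5 ± 5.85 TPM in ovary and 7.72 ± 3.12 TPM in non-gonadal tissue (SD, n = 3 each).

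*elav2* (1658 bases, rank 301) had 428, 484 and 422 TPM in testis, 4.87, 3.24 and 4.83 TPM in ovary and 2.60, 1.19 and 0.843 TPM in non-gonadal tissue. Tissue means were 445 ± 34.4 TPM in testis, 4.31 ± 0.931 TPM in ovary and 1.55 ± 0.933 TPM in non-gonadal tissue (SD, n = 3 each). The tissues did not overlap, and non-gonadal replicate 1, with 90 counts against 48 and 31 in the other 2, held most of the non-gonadal counts.

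*rap55* (1760 bases, rank 441) stood close below *elav2* in testis, at 357, 329 and 316 TPM. Its levels elsewhere were 6.07, 3.20 and 5.19 TPM in ovary and 2.86, 2.06 and 2.10 TPM in non-gonadal tissue. In testis the values were among the tightest of the set (334 ± 20.9 TPM, a coefficient of variation of 6.26%), and the lowest ovary library, replicate 2, lay just above the highest non-gonadal one.

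*gapdh* (1131 bases, rank 2103) had 97.3, 66.1 and 82.6 TPM in testis, 0.672, 1.11 and 0.879 TPM in ovary and 1.49, 0.948 and 0.837 TPM in non-gonadal tissue. It was the one transcript of the set whose mean was lower in ovary (0.887 ± 0.219 TPM) than in non-gonadal tissue (1.09 ± 0.347 TPM, SD, n = 3 each), and the libraries of these tissues were interleaved. These values belong to SMED30011351 alone, and whether other transcripts of the assembly come from *gapdh* or from another member was not analysed here. The counts behind this were few: 65 in all in ovary (95% Poisson interval 50.2 to 82.8) and 82 in all in non-gonadal tissue (65.2 to 102), against 1912 to 2541 in each testis library. Such intervals cover counting error only.

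*bic-c*, with the longest transcript (2627 bases) and the lowest testis level (rank 5279), had 23.0, 17.4 and 22.0 TPM in testis, 0.543, 0.494 and 0.832 TPM in ovary and 0.292, 0.267 and 0.223 TPM in non-gonadal tissue. The 3 tissues did not overlap, although ovary had only 104 counts in all and non-gonadal tissue 46. Tissue means were 20.8 ± 3.02 TPM in testis, 0.623 ± 0.183 TPM in ovary and 0.261 ± 0.0350 TPM in non-gonadal tissue (SD, n = 3 each).

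**Figure D1:**
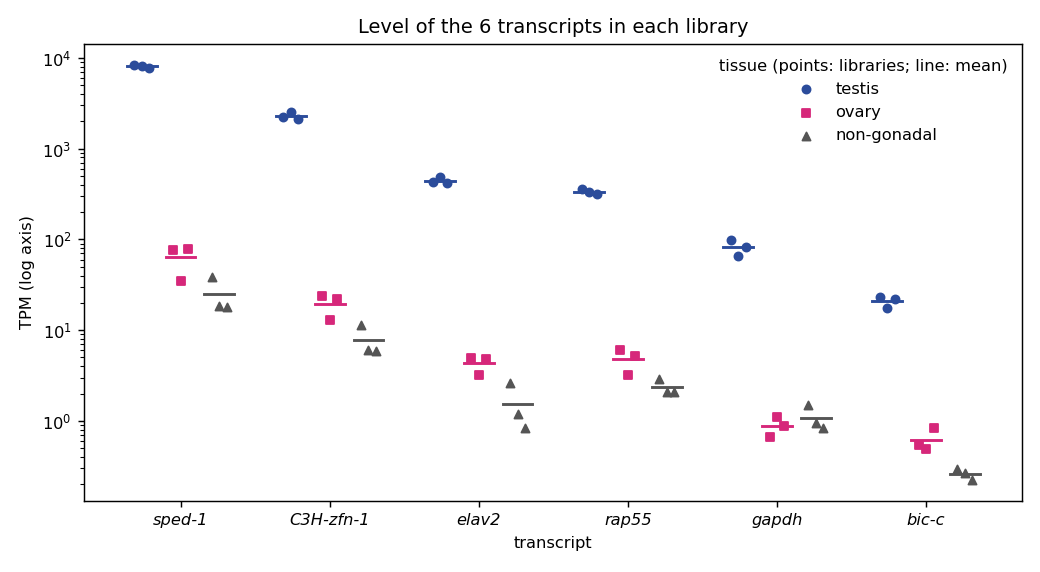
TPM of each transcript (log axis) in the 3 testis, 3 ovary and 3 non-gonadal libraries, with points for libraries and a line at each tissue's mean. Every testis point lies far above the other 6, from 7661 to 8411 TPM for *sped-1* and from 17.4 to 23.0 TPM for *bic-c*. Ovary and non-gonadal points lie closer to each other than to testis.

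The order of levels in testis was *sped-1*, *C3H-zfn-1*, *elav2*, *rap55*, *gapdh* and *bic-c*. No neighbours in this order overlapped between libraries, and each mean stood above the next by 3.51-fold, 5.18-fold, 1.33-fold, 4.07-fold and 3.94-fold. The closest neighbours, *elav2* and *rap55*, were separated by 422 TPM in the lowest library for *elav2* and 357 TPM in the highest for *rap55*. The coefficient of variation in testis was 4.74% for *sped-1*, 6.26% for *rap55*, 7.73% for *elav2*, 8.69% for *C3H-zfn-1*, 14.5% for *bic-c* and 19.0% for *gapdh*. Testis replicate 2 was the highest of the testis libraries for *elav2* and *C3H-zfn-1* and the lowest for *bic-c* and *gapdh*. In the same library the early germ cell marker *nanos* was also lowest, at 25.2 TPM against 31.9 and 33.1 TPM in replicates 1 and 3. *aadc*, expressed in somatic gonad cells among others, was lowest there too, at 6.70 TPM against 9.28 and 8.89 TPM. However, *aadc* was not called between testis and non-gonadal tissue (log2 fold change 0.15, adjusted p = 0.273, edgeR), so that here it does not set testis apart from other tissue. The part of either cell type in these differences was not tested.

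The first comparison asked how far each gene in testis stood above the tissue around the gonads. In the edgeR quasi-likelihood model of the 9 libraries, with counts scaled by the TMM method, all 6 transcripts were called higher in testis, where a call needed both a 2-fold difference or more and a p of 0.01 or less after Benjamini-Hochberg adjustment. Of all transcripts tested, 33.4% were called higher in testis and 35.1% lower. The largest difference was that of *sped-1*, whose log2 fold change was 8.77 (SE 0.47, adjusted p = 1.23e-09) or 436-fold. *C3H-zfn-1* followed at 8.65 (SE 0.40, adjusted p = 2.61e-10) or 403-fold, and *elav2* at 8.61 (SE 0.39, adjusted p = 1.96e-10) or 391-fold. *rap55* was higher by 7.59 (SE 0.29, adjusted p = 4.38e-11), *bic-c* by 6.74 (SE 0.21, adjusted p = 7.96e-12) and *gapdh* by 6.67 (SE 0.21, adjusted p = 8.18e-12), which are 193-fold, 107-fold and 102-fold. With upper-quartile scaling these values were lower, from 5.83 for *gapdh* to 7.93 for *sped-1*. With TMM, the 95% intervals of *sped-1*, *C3H-zfn-1* and *elav2* overlapped widely, from 7.74 at the lowest bound to 9.80 at the highest, and lay above those of *bic-c* (6.28 to 7.19) and *gapdh* (6.22 to 7.12). The median log2 fold change was 8.10 over the 6 transcripts and -0.10 over all transcripts tested, and between 3.20% and 10.6% of transcripts had a larger one than the members.

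Testis was next set against ovary, to separate genes of the male gonad from those of both gonads. All 6 were called higher in testis here as well, where 30.4% of transcripts tested were called higher and 31.6% lower (edgeR). The log2 fold changes were 8.03 for *sped-1* (SE 0.46, adjusted p = 2.71e-09), 7.93 for *C3H-zfn-1* (SE 0.39, adjusted p = 5.35e-10), 7.74 for *elav2* (SE 0.37, adjusted p = 3.85e-10), 7.58 for *gapdh* (SE 0.22, adjusted p = 5.30e-12), 7.16 for *rap55* (SE 0.28, adjusted p = 6.24e-11) and 6.13 for *bic-c* (SE 0.19, adjusted p = 8.23e-12). As folds these ran from 70.0 for *bic-c* to 262 for *sped-1*. These folds moved with the scaling: with library size alone the log2 fold changes were 5.17 for *bic-c* and 7.07 for *sped-1*, and the ratios of mean TPM were 33.4 and 127. The transcript named *gapdh* stood 191-fold above ovary and 102-fold above non-gonadal tissue (92.5-fold and 75.2-fold by mean TPM), whereas each other member had the larger fold over non-gonadal tissue on both scales. The median was 7.66 over the 6 transcripts and -0.22 over all transcripts tested. Both comparisons use the same testis libraries, so that their values are not independent.

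**Figure D2:**
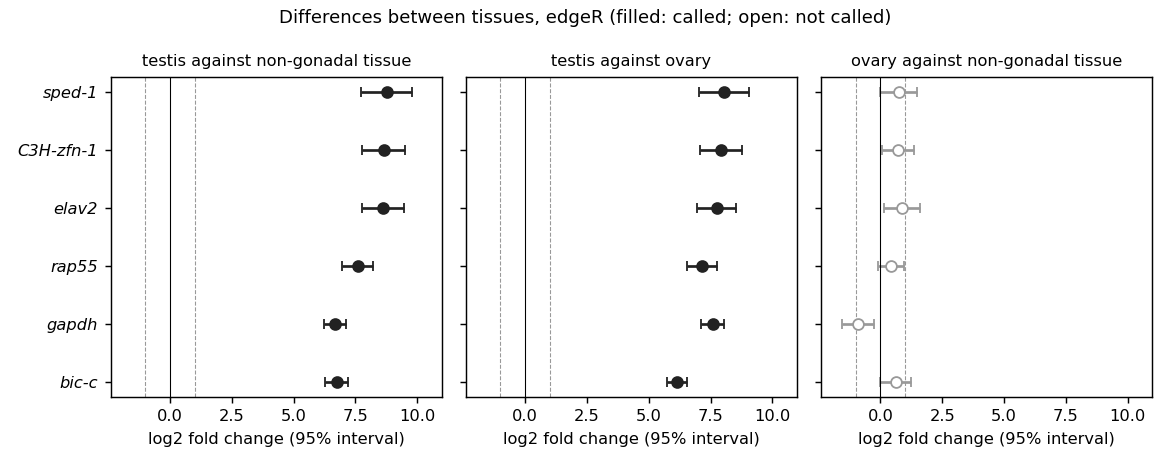
Log2 fold change of each transcript with its 95% interval, for testis against non-gonadal tissue, testis against ovary and ovary against non-gonadal tissue, with dashed lines at a 2-fold change in either direction. Filled points, all between 6.13 and 8.77 on the log2 scale, were called, and the open points of the right panel, between -0.91 and 0.87, were not.

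Between the tissues other than testis the differences were far smaller than those with testis, and their size depended on the scale. By mean TPM, ovary over non-gonadal tissue was 2.06-fold for *rap55* to 2.79-fold for *elav2*, with *sped-1*, *C3H-zfn-1* and *bic-c* between them, and 0.814-fold for *gapdh*. None of the 6 transcripts was called in ovary against non-gonadal tissue by the edgeR quasi-likelihood test, where 18.3% of transcripts tested were called higher and 18.8% lower, and 3 of the 6 had an unadjusted p below 0.05. Among the 5 with a positive estimate, *elav2* had a log2 fold change of 0.87 (95% interval 0.14 to 1.59, adjusted p = 0.0350), *sped-1* 0.73 (-0.02 to 1.49, adjusted p = 0.0771) and *C3H-zfn-1* 0.73 (0.08 to 1.37, adjusted p = 0.0456). The estimates of *bic-c* and *rap55* were 0.61 (-0.01 to 1.23, adjusted p = 0.0766) and 0.43 (-0.12 to 0.97, adjusted p = 0.147). *gapdh* had an estimate in the other direction, -0.91 (-1.55 to -0.27, adjusted p = 0.0149). The upper bounds for *elav2*, *sped-1*, *C3H-zfn-1* and *bic-c* and the lower bound for *gapdh* pass a 2-fold change, so that differences of that size are not excluded at this depth. The DESeq2 Wald test also called none, although *gapdh* missed only the 2-fold threshold there (log2 fold change -0.94, adjusted p = 0.00278).

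These estimates depended on the scale and on single libraries. By TPM, *elav2*, *bic-c*, *C3H-zfn-1* and *rap55* had every ovary library above every non-gonadal library, as did 56.7% of all transcripts tested. After TMM scaling, which divides ovary counts by factors of 1.37 to 1.39 and non-gonadal counts by 1.02 to 1.04, 34.9% of transcripts and, of the 6, only *bic-c* kept that separation. *bic-c* then had 1.06, 0.838 and 1.56 CPM in ovary, against 0.833, 0.758 and 0.636 CPM in non-gonadal tissue. *gapdh* on that scale had 0.565, 0.810 and 0.707 CPM in ovary, all below the 1.82, 1.16 and 1.03 CPM of non-gonadal tissue. Without non-gonadal replicate 1, *elav2*, *C3H-zfn-1* and *sped-1* passed the thresholds, with log2 fold changes of 1.45, 1.11 and 1.19, and without ovary replicate 2 *sped-1* alone did, at 1.04. Scaling by library size alone called *elav2*, *bic-c*, *C3H-zfn-1* and *sped-1* higher in ovary, and upper-quartile scaling called *gapdh* lower.

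With TMM scaling in edgeR, all 6 transcripts were higher in testis than in each other tissue and not called between those tissues. This pattern was held by 20.5% of the transcripts tested (3777). For some members, the lack of a call between ovary and non-gonadal tissue depended on the scaling or on single libraries, as given above. Other named genes of the same heatmap did not share the pattern. *nf-yb*, named for a subunit of the transcription factor NF-Y, had 331 ± 29.1 TPM in testis, 48.9 ± 1.74 TPM in ovary and 6.14 ± 0.776 TPM in non-gonadal tissue, and *eIF3c*, named for a subunit of a translation initiation factor, had 68.2 ± 4.89 TPM in testis, 9.46 ± 1.49 TPM in ovary and 0.765 ± 0.124 TPM in non-gonadal tissue (SD, n = 3 each). Both were also called higher in ovary than around the gonads, and *nanos* and *lecg* were not higher in testis than in ovary (edgeR).

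Low levels outside testis were compared with the testis level of the same gene. Relative to mean testis TPM, mean ovary TPM was 0.784% for *sped-1*, 0.847% for *C3H-zfn-1*, 0.969% for *elav2*, 1.08% for *gapdh*, 1.44% for *rap55* and 2.99% for *bic-c*, with a median of 1.03%. In TMM-scaled CPM each of these ovary shares was lower, from 0.382% for *sped-1* to 1.44% for *bic-c*, with a median of 0.491%. In non-gonadal tissue the TPM shares were 0.310% for *sped-1*, 0.335% for *C3H-zfn-1*, 0.348% for *elav2*, 0.701% for *rap55*, 1.25% for *bic-c* and 1.33% for *gapdh*, with a median of 0.524%. The 3 transcripts with the highest testis levels therefore had the lowest shares in both tissues. Among the 4946 transcripts called higher in testis than in both other tissues, the median share was 11.2% in ovary and 4.63% in non-gonadal tissue, and the lower quartiles were 1.28% and 0.457%. The 6 transcripts lay between the percentiles 10.0 and 36.2 of this set for ovary and between 12.8 and 39.6 for non-gonadal tissue, so that many transcripts had shares as low.

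The shares varied between libraries of a tissue, and several members varied together. Ovary replicate 2 had the lowest share of the ovary libraries for 5 of the 6 transcripts, at 0.435% for *sped-1*, 0.556% for *C3H-zfn-1*, 0.728% for *elav2*, 0.957% for *rap55* and 2.38% for *bic-c*. For *gapdh* this library instead had the highest share, 1.35%, against 0.820% and 1.07% in ovary replicates 1 and 3. In non-gonadal tissue, replicate 1 had the highest share for all 6, at 0.478% for *sped-1*, 0.492% for *C3H-zfn-1*, 0.586% for *elav2*, 0.857% for *rap55*, 1.41% for *bic-c* and 1.81% for *gapdh*. The other non-gonadal libraries had 0.226% and 0.225% for *sped-1* and 0.268% and 0.190% for *elav2*, well below replicate 1. Counts of *bic-c* behind its shares were 30, 30 and 44 in ovary and 16, 17 and 13 in non-gonadal tissue (replicates 1 to 3). Those of *gapdh* were 16, 29 and 20 in ovary and 35, 26 and 21 in non-gonadal tissue. With so few counts, the order of libraries carries little weight for *bic-c* and *gapdh*.

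The same libraries stood out among other abundant testis transcripts. Over the 100 transcripts with the highest testis TPM among the 4946, a list made after the data were seen and holding 2 of the members, the median share was 0.910%, 0.537% and 0.835% in ovary and 0.467%, 0.223% and 0.206% in non-gonadal tissue (replicates 1 to 3). Ovary replicate 2 was thus again lowest and non-gonadal replicate 1 highest. Over all 4946 the medians were 10.1%, 10.8% and 11.1% in ovary and 4.31%, 4.66% and 4.46% in non-gonadal tissue, without that order. The oocyte marker *lecg* and the female germ cell marker *zfs1* were highest in another non-gonadal library, replicate 2. There *lecg* had 28.4 TPM against 8.20 and 7.40 TPM, and *zfs1* had 5.48 TPM against 1.94 and 2.46 TPM. Whether captured areas outside testis held RNA from testis was not tested.

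**Figure D3:**
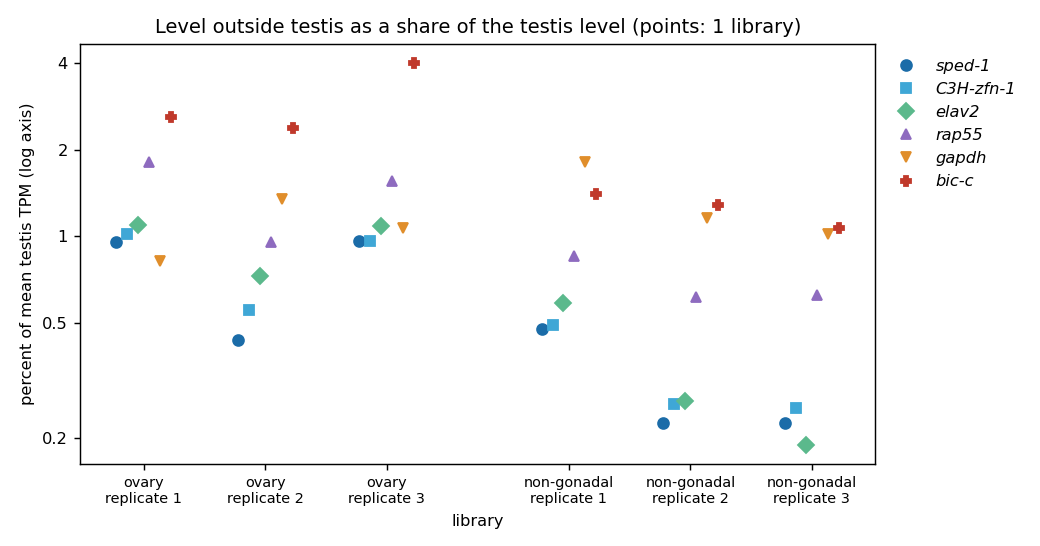
TPM of each transcript in the 3 ovary and 3 non-gonadal libraries as a percent of its mean TPM in testis (log axis), with 1 point per library and transcript. Points of *sped-1*, *C3H-zfn-1*, *elav2* and *rap55* are lowest of the ovary libraries in replicate 2 and highest of the non-gonadal libraries in replicate 1, whereas *gapdh* is highest in ovary replicate 2, at 1.35%.

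The proportions of the genes to each other within a library do not depend on how libraries are scaled, and were taken relative to *sped-1*, the most abundant. *C3H-zfn-1* kept nearly the same proportion in every tissue, with 26.8 to 30.8% of the *sped-1* TPM in testis, 28.5 to 36.4% in ovary and 29.3 to 32.9% in non-gonadal tissue. For *elav2* it was 5.09 to 5.92% in testis, 6.20 to 9.19% in ovary and 4.63 to 6.74% in non-gonadal tissue, so that testis lay below ovary and overlapped non-gonadal tissue. In contrast to these, *rap55* and *bic-c* took a larger proportion outside testis in every library. The choice of reference favours this direction, since *sped-1* had the lowest mean share of its testis level of the 6 members in both other tissues. Among the 4946 transcripts called higher in testis than in both other tissues, only 10.0% had a smaller ovary share than *sped-1*. For the non-gonadal share it was 12.8%. *rap55* had 4.03 to 4.24% of the *sped-1* TPM in testis, 6.67 to 9.08% in ovary and 7.41 to 11.5% in non-gonadal tissue. *bic-c* had 0.212 to 0.288% in testis, 0.703 to 1.40% in ovary and 0.756 to 1.46% in non-gonadal tissue. *gapdh* was the only one whose ovary and non-gonadal proportions did not overlap, with 0.809 to 1.16% in testis, 0.871 to 3.15% in ovary and 3.84 to 5.19% in non-gonadal tissue. In exact two-sided permutation tests of the log2 ratios, 15 in all, every pair of tissues that did not overlap gave p = 0.1 (0.214 after Benjamini-Hochberg adjustment), the smallest value that 3 libraries against 3 allow. Since no pair could have passed, the test does not decide between a difference and none, and the ranges stand as a description.

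**Figure D4:**
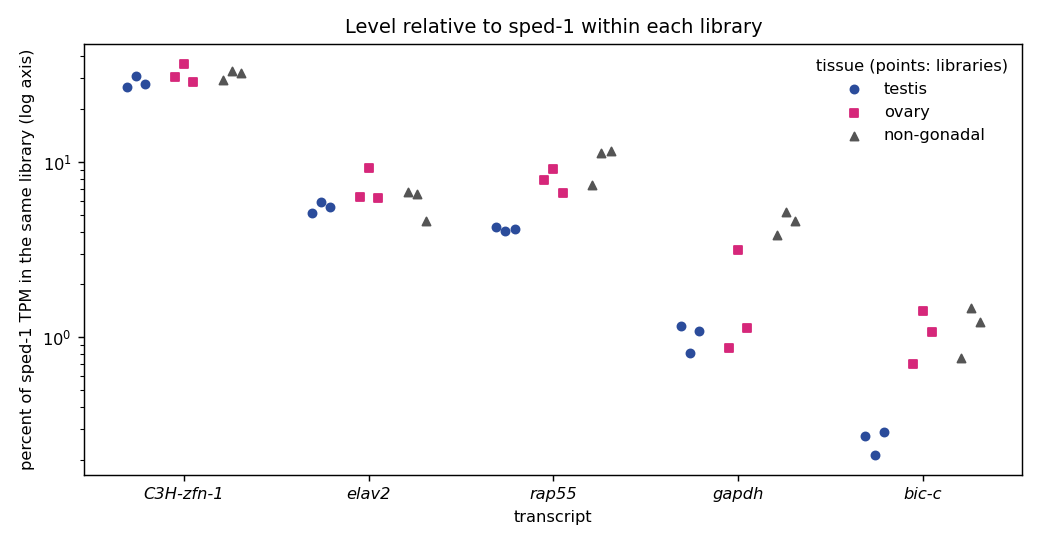
TPM of each other transcript as a percent of the *sped-1* TPM in the same library (log axis), with points for the 3 testis, 3 ovary and 3 non-gonadal libraries. *C3H-zfn-1* stays between 26.8 and 36.4% in all 9 libraries, while *rap55* and *bic-c* are lower in every testis library than in any other, and *gapdh* is highest in non-gonadal tissue. The reference *sped-1* has the lowest mean share of its testis level among the members in both other tissues, which favours larger proportions there.

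Finally, the transcripts nearest in pattern to each member were sought among all those tested. The measure was the root mean square (RMS) difference over the 9 libraries of log2(TMM-scaled CPM + 1), each transcript centred on its own mean. The members nearest to each other were *sped-1* and *C3H-zfn-1*, at an RMS difference of 0.139, and *elav2* was nearest to *C3H-zfn-1*, at 0.226. *bic-c* and *gapdh* were each nearest to the other among the members, but at 0.482. The offset of 1 CPM flattens the pattern of transcripts with low counts, so that the measure depends on level as well as on shape.

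The 2 transcripts most like *sped-1* were SMED30016657 (RMS 0.107) and SMED30029762 (0.135), with mean levels of 10577 and 3353 TPM in testis, 77.2 and 22.1 TPM in ovary and 31.7 and 8.0 TPM in non-gonadal tissue. Those most like *C3H-zfn-1* were SMED30036023 (0.0882) and SMED30028062 (0.0964), and those most like *elav2* were SMED30019895 (0.0974), with a testis level of 448 TPM close to its own, and SMED30006556 (0.106). For *rap55* they were SMED30007144 (0.0838) and SMED30025824 (0.0992), for *bic-c* SMED30013602 (0.0964) and SMED30031425 (0.144), and for *gapdh* SMED30015405 (0.220) and SMED30016705 (0.221). Within an RMS difference of 0.25 stood 360 transcripts for *rap55*, 130 for *bic-c*, 112 for *elav2*, 96 for *C3H-zfn-1*, 51 for *sped-1* and 9 for *gapdh*. *gapdh*, the one member with lower TMM-scaled values in every ovary library than in non-gonadal tissue, had the fewest transcripts of like pattern. Whether that direction or its low counts outside testis played a part was not tested. With an offset of 0.1 CPM these numbers became 55, 12, 141, 251, 153 and 0, so that the order of the members depends on the offset, apart from *gapdh* in last place.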

How the data were processed

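RNA from laser-captured testis, ovary and non-gonadal tissue was sequenced by the authors as 100 nt single-end stranded reads. Trimming, mapping to the de novo transcriptome smed_20140614 (with *zfs1* added) and counting were done in CLC Genomics Workbench. Its version and its handling of multiply mapped reads were not given in the sources used. The authors deposited read counts per transcript without normalization, equal in both tables for all 324324 values. They also deposited RPKM, from which lengths were recovered here, and TPM, used for levels. Their deposited CPM is a signal with a composition factor that they do not describe, since its sums range from 724797 to 1582270. The plan had taken it for plain CPM, and it was used as deposited for the filter (1 CPM or more in 3 or more libraries), which left 18416 of 36036 transcripts (51.1%), holding at least 99.6% of counts in each library. The 12 columns of the authors' own fold changes and p-values were not used.

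Counts were tested in edgeR 4.0.16 (limma 3.58.1, R 4.3.3) with the quasi-likelihood test, TMM scaling with full library totals, and 1 model of all 9 libraries. Adjustment ran over all transcripts tested. TMM factors were 0.671 to 0.727 for testis, 1.37 to 1.39 for ovary and 1.02 to 1.04 for non-gonadal libraries. The script was tested on simulated counts. Groups came from the sample labels. The rule for named genes was the 6 members, 4 others with symbols in the heatmap (*nanos*, *nf-yb*, *eIF3c* and *lecg*), the markers *zfs1* and *aadc*, and the 2 transcripts nearest in pattern to each member. The members and lists were chosen with earlier results of these data known. Alternatives were other scalings, DESeq2 1.42.0, other filters, fits of 2 tissues, an adjusted p of 0.05, a test against a 1.5-fold change, a replicate block and leaving out each library. Sequences of the members were not used here.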

Additional observations from a re-analysis of the deposited data

How the results depend on the processing

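For both comparisons with testis, all 6 transcripts were called higher under each alternative tried. Over 17 of them the log2 fold changes lay between 5.83 and 9.22 against non-gonadal tissue and between 5.17 and 8.28 against ovary. Ovary against non-gonadal tissue was less firm, with 93 of 102 values on the same side of the thresholds, 9 that passed them and none with the other sign. With library size alone in place of TMM, 4 of the 6 (*elav2*, *bic-c*, *C3H-zfn-1* and *sped-1*) were called higher in ovary, at 1.28, 1.03, 1.14 and 1.15, as were 5306 transcripts in all, against 3364 with TMM. When each library was left out in turn, between 0 and 3 of the 6 were called. Upper-quartile scaling called *gapdh* lower in ovary, at -1.03 (adjusted p = 0.00738, edgeR), where its adjusted p ranged from 0.00278 to 0.178 over the alternatives. The share of calls that were higher was 48.7% for testis against non-gonadal tissue, 49.0% for testis against ovary and 49.3% for ovary against non-gonadal tissue with TMM. It was 39.3%, 30.2% and 68.9% with library size alone and 35.0%, 33.9% and 44.0% with upper-quartile scaling, which moved the median of all transcripts by -0.55, -0.96 and 0.42 and by -0.83, -0.72 and -0.11. The median ovary share of the testis level was 0.491% in TMM-scaled CPM, against 1.03% in TPM, since TPM carries no composition factor. Correlations of deviations between same-numbered libraries were weak, from -0.02 to 0.19, with 2 of 9 over 0.1. Those between libraries of different numbers ran from -0.24 to 0.11, so the check does not settle whether replicate numbers pair libraries. With the replicate number as a block, 6, 6 and 0 of the members were called, as without it. Low counts outside testis limit *gapdh* and *bic-c* the most.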
